A study of Homo sapiens with 18 samples.

Results

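The hairpin sh52 is a short hairpin RNA directed against USP13, and its effect was measured in 786-O cells against a control hairpin (shCtrl). The libraries were chosen by their titles, and they were 6 of the 18 libraries of the study, with 3 under sh52 and 3 under the control hairpin. 786-O is an established cell line from a human clear-cell carcinoma of the kidney, without functional VHL. All groups were of this 1 line and carried a hairpin. Another 3 libraries, under the USP13 hairpin sh50, were part of the same experiment and shared the control libraries. They entered the fit and a direct comparison of both hairpins. The protocols mention a doxycycline-inducible vector for USP13 hairpins, but do not say which vector, which control sequence or how many days of knockdown were used for RNA sequencing. The labels speak of triplicates and do not say whether each came from its own culture. The p-values therefore set each difference between groups against the spread of these libraries alone, and that spread may be technical.

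USP13 is a deubiquitinating enzyme, a protease that removes ubiquitin from other proteins and can thereby spare them from degradation by the proteasome. In the title of the study, the transcription factor ZHX2 is named as a protein that it deubiquitinates. A short hairpin RNA is processed by Dicer into a guide strand, which directs an Argonaute protein to cut the matching mRNA. A guide can also lower other mRNAs through its seed, a short stretch at its 5′ end that pairs with 3′ untranslated regions (3′ UTRs), so that each hairpin can carry changes of its own.

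The sequences of both hairpins are shown because the comparisons below turn on where each one pairs. They are written 5′ to 3′ with the seed of the guide (bases 2 to 8), and the part of the target that pairs with it, in capitals. The labels give the targets. Each guide was taken as the reverse complement of its target, and its actual 5′ end was not measured.
sh52 target: ccggtgaaatctgAACTCATt
sh52 guide: aATGAGTTcagatttcaccgg
sh50 target: cgcctgatgaaccAATTGATa
sh50 guide: tATCAATTggttcatcaggcg
The sh52 target of 21 bases matched USP13 at chr3:179730662-179730682 (GRCh38, plus strand), in the coding part of exon 10 of 21 of its GENCODE 29 transcript. The sh50 target matched chr3:179757054-179757074, in the coding part of exon 16 of 21. Among the protein-coding transcripts of GENCODE 29, USP13 was the one gene that held the whole sh52 target. The next longest shared stretch was 14 bases in DHX34, an RNA helicase gene, and DHX34 rose under sh52 (log2 change 0.37, SE 0.09; edgeR quasi-likelihood, adjusted p = 0.0046). No difference of DHX34 between sh52 and sh50 was called (log2 difference -0.04; edgeR, adjusted p = 0.817).

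Total estimated counts ranged from 12484640 to 14027133 in the sh52 libraries and from 12657543 to 15990217 in the control libraries. One library, sh52 replicate 1, stood apart. On the second principal component of log2 CPM (21.4% of the variance) it scored -35.7, against -2.84 and -7.03 for sh52 replicates 2 and 3 and values between 3.24 and 12.3 for the 6 other libraries. It held counts for 15481 genes, against 15936 and 16042 in the other sh52 libraries. The total counts of changed genes are therefore given with and without it. Of the markers listed for renal carcinoma cells, PAX8, PAX2, VIM, KRT8, KRT18 and CDH6 were present in every library, whereas CA9 and NDUFA4L2 were at or near 0. The summed level of the leukocyte markers was 29.3 to 32.4 CPM in the control and 36.8 to 38.5 CPM under sh52, nearly all of it CD68, with CD3E and NKG7 at 0. The endothelial markers VWF and KDR were at 0, and the fibroblast markers summed to 23.5 to 28.1 CPM in the control and 19.5 to 20.8 CPM under sh52.

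**Figure D1:**
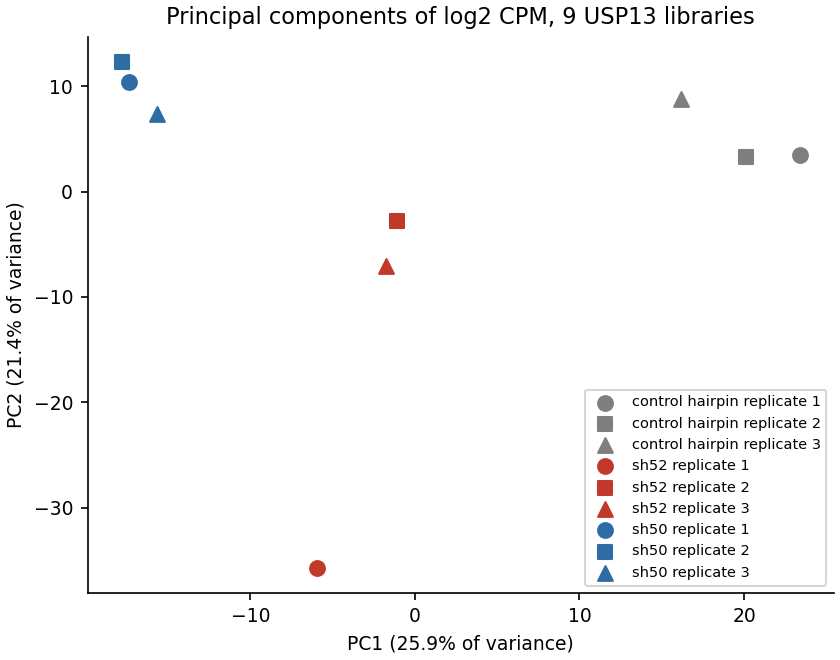
Scores of the 9 libraries of the USP13 experiment on the first and second principal components of log2 CPM over 13708 genes, with color for the hairpin and shape for the replicate. The control libraries lie at the right, sh50 at the left and sh52 between them, and sh52 replicate 1 lies far below the rest at -35.7 on the second component.

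The first question was whether sh52 lowered its target. USP13 mRNA measured 36.9, 34.7 and 31.8 CPM (counts scaled by library size) in the control libraries and 14.8, 18.1 and 17.9 CPM under sh52. The groups did not overlap, and the lowest value was that of sh52 replicate 1. USP13 fell by 1.03 on the log2 scale (SE 0.11; edgeR quasi-likelihood, Benjamini-Hochberg adjusted p = 3.26e-07), and by 0.94 when replicate 1 was left out. The remaining level under sh52 did not differ detectably from that under sh50, which was 16.8, 17.1 and 20.5 CPM (log2 difference -0.11, SE 0.11; edgeR, adjusted p = 0.612). ZHX2 mRNA was 157.8, 148.6 and 157.4 CPM in the control and 135.1, 137.0 and 140.9 CPM under sh52. The values did not overlap, and the log2 change was -0.17 (SE 0.05; edgeR, adjusted p = 0.0466). This call ended with each of the 9 libraries left out in turn, with adjusted p between 0.052 and 0.155 (edgeR), and the adjusted p was 0.0943 without sh52 replicate 1. Of 35 other ubiquitin-specific proteases, USP10 and USP40 rose and USP46, USP3 and USP22 fell, and the median log2 change of the 35 was -0.01. Of all genes tested, 5.45% rose and 6.57% fell, so that the calls in this family lay near the shares of all genes. USP22, USP3 and USP10 each lost the call with some library left out, USP22 without replicate 1 (edgeR, adjusted p = 0.148), USP3 without sh52 replicate 2 or 3 or control replicate 1, and USP10 without sh52 replicate 3 or control replicate 3. The largest of these changes was that of USP46, a protease of the USP12 family, which fell from 32.3 ± 1.28 to 22.0 ± 1.55 CPM (SD, n = 3).

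Across the 13708 genes tested, 747 were higher and 900 were lower under sh52 than in the control at an adjusted p under 0.05 (edgeR quasi-likelihood, Benjamini-Hochberg). Together these were 12% of the genes tested, with 5.45% higher and 6.57% lower. Most changes were small. Of the genes that rose, 634 moved by less than 1.5-fold and 32 by more than 2-fold, with a median log2 change of 0.34. Of the genes that fell, 777 moved by less than 1.5-fold and 32 by more than 2-fold, with a median of -0.33. The CPM of the sh52 and control libraries did not overlap for 706 of the genes that rose and 867 of those that fell, while this was so for 27.8% of all genes tested. The share of genes called grew with their level, from 1.56% below 1 CPM and 3.13% from 1 to 5 CPM to 24% at 100 CPM and more. The smallest change that was called was 1.70 on the log2 scale below 1 CPM and 0.12 above 100 CPM, so that small changes of weakly expressed genes were not detectable at this depth. The counts depended on single control libraries. Without control replicate 1, 413 genes were higher and 610 lower, and without control replicate 2, 408 were higher and 582 lower.

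**Figure D2:**
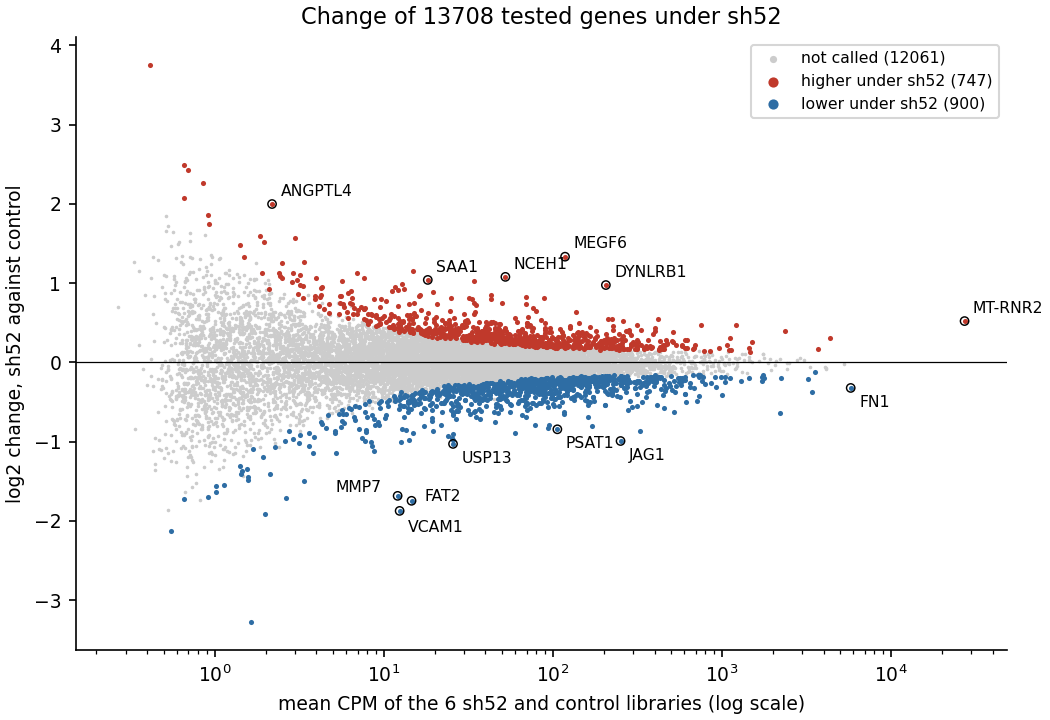
Log2 change under sh52 against the mean CPM of the 6 sh52 and control libraries (log scale), with a point for each of 13708 genes, red for the 747 called higher and blue for the 900 called lower. The change needed for a call narrows from left to right, and USP13, VCAM1, FAT2 and MMP7 lie below the bulk of genes of their level.

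Among the genes that fell furthest, VCAM1, FAT2 and JAG1 encode proteins of the cell surface and MMP7 a secreted protease. The named genes of this and the following paragraph were the 12 lowest and 12 highest log2 changes among genes called with and without replicate 1, with at least 5 CPM and no overlap, so that their separation follows from their choice. VCAM1, an adhesion molecule that binds leukocyte integrins, measured 19.9, 18.6 and 20.01 CPM in the control and 5.66, 5.65 and 4.67 CPM under sh52 (log2 change -1.87, SE 0.14; edgeR, adjusted p = 1.54e-09). FAT2, an atypical cadherin, measured 21.8, 23.4 and 22.3 CPM in the control and 6.505, 7.35 and 6.32 CPM under sh52 (log2 change -1.75, SE 0.14; edgeR, adjusted p = 2.09e-09). The metalloproteinase MMP7 measured 20.03, 17.8 and 17.5 CPM in the control and 5.23, 6.78 and 5.24 CPM under sh52 (log2 change -1.68, SE 0.15). In all 3 genes the sh52 libraries lay close together and replicate 1 fell among or beside its mates. These falls were shared by sh50, with log2 changes against the control of -1.67 for VCAM1, -2.08 for FAT2 and -1.85 for MMP7. No difference between the hairpins was called for them (edgeR, adjusted p = 0.489, 0.201 and 0.594). JAG1, a ligand of Notch receptors, was far more abundant and measured 344.9, 329.7 and 330.7 CPM in the control and 163.0, 187.2 and 155.8 CPM under sh52 (log2 change -0.99, SE 0.06; edgeR, adjusted p = 3.04e-11). JAG1 also fell under sh50, with a log2 change of -0.65. NEURL3, a ubiquitin ligase of the Neuralized family, fell by 1.06, and FLRT3, a membrane protein with leucine-rich repeats, fell by 1.00 on the log2 scale. USH1C, which encodes the scaffold protein harmonin, fell from 18.8 ± 1.71 to 9.49 ± 0.562 CPM. In lipid and carbonyl metabolism, PNPLA3, a lipase of lipid droplets, fell from 7.15 ± 0.636 to 3.24 ± 0.154 CPM, and the aldo-keto reductase AKR1B10 fell from 10.3 ± 1.19 to 5.18 ± 0.323 CPM. MMD fell by 1.01 on the log2 scale, and USP13 itself was the seventh lowest. GJA9-MYCBP, with a log2 change of -1.12, is a readthrough transcript that shares sequence with MYCBP, so that its level is uncertain.

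The genes that rose furthest included MEGF6, which encodes a protein with many EGF-like domains. MEGF6 measured 59.8, 69.9 and 71.6 CPM in the control and 162.8, 178.5 and 166.8 CPM under sh52 (log2 change 1.33, SE 0.08; edgeR, adjusted p = 8.55e-12). NCEH1, a hydrolase of cholesteryl esters, measured 37.3, 33.0 and 30.8 CPM in the control and 71.3, 71.4 and 70.9 CPM under sh52 (log2 change 1.08, SE 0.08). DYNLRB1, a light chain of the dynein motor, measured 140.3, 138.5 and 138.2 CPM in the control and 276.1, 263.2 and 281.1 CPM under sh52 (log2 change 0.98, SE 0.05; edgeR, adjusted p = 6.56e-12). For these 3 genes the spread within each group was small beside the gap between groups. SAA1, an acute-phase protein, rose from 11.9 ± 1.37 to 24.5 ± 2.18 CPM (log2 change 1.04). ARHGEF16, a guanine nucleotide exchange factor, rose by 0.95, and the homeobox gene HOXC8 rose by 1.02, with sh52 values of 8.48, 9.04 and 5.24 CPM that spread widely. CCDC78 rose by 1.13, and the noncoding RNAs LINC02615 and MIR3667HG rose by 1.16 and 0.99 on the log2 scale. NPIPB13, NPIPB5 and NPIPA5 rose by 1.06, 1.03 and 0.93, but they belong to a family of near-identical copies among which reads had to be divided, so that their separate levels are uncertain. The 24 genes of these paragraphs kept their calls in each of the 9 fits that lacked 1 library. Their call in the fit without sh52 replicate 1 was part of their choice.

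**Figure D3:**
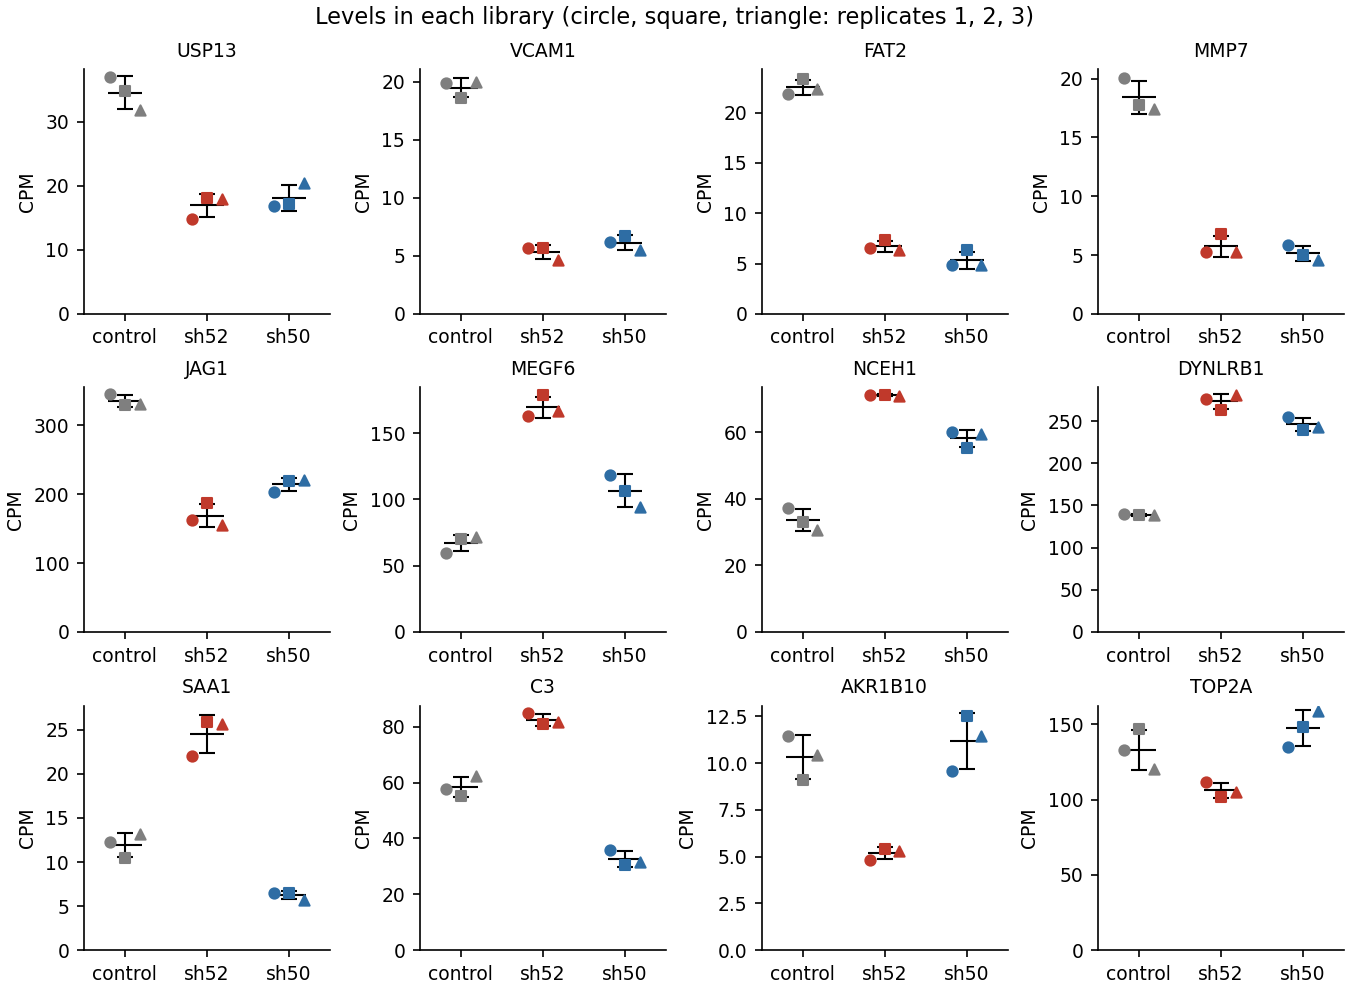
CPM of 12 genes in each library, in the order control, sh52 and sh50, with each point a library, the horizontal line the mean and the bar 1 SD on each side (n = 3). USP13, VCAM1, FAT2, MMP7 and JAG1 are lower under both hairpins than in the control, and MEGF6, NCEH1 and DYNLRB1 are higher under both. SAA1 and C3 are higher under sh52 and lower under sh50.

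The most abundant called genes showed small changes with narrow errors. The mitochondrial ribosomal RNA MT-RNR2 rose from 22415 ± 614 to 32184 ± 1261 CPM (log2 change 0.52, SE 0.03; edgeR, adjusted p = 8.55e-12). MT-RNR1 had a log2 change of 0.30 (edgeR, adjusted p = 0.0229), which did not pass with DESeq2 (adjusted p = 0.257) or without sh52 replicate 2 or 3 or control replicate 1 or 2 (edgeR, adjusted p between 0.0746 and 0.137). Mitochondrial rRNA took 3.54%, 3.75% and 3.80% of the counts in the sh52 libraries and 2.62%, 2.54% and 2.70% in the control libraries, and with it left out 761 genes were higher and 901 lower. The fibronectin gene FN1 fell from 6433 ± 390 to 5146 ± 97.4 CPM (log2 change -0.32, SE 0.04), and VIM, the mesenchymal intermediate filament, fell from 3876 ± 38.0 to 2983 ± 39.0 CPM. FTH1, the ferritin heavy chain, fell by 0.20, and the glycolytic enzyme PKM had a log2 change of -0.12, which did not pass without control replicate 1 (edgeR, adjusted p = 0.059) or 2 (0.0679). IGFN1 rose by 0.39. ACTB, the cytoplasmic beta-actin, had a log2 change of 0.17 (edgeR, adjusted p = 0.0132), with sh52 values of 4162, 3665 and 3911 CPM against 3587, 3532 and 3324 CPM in the control. ACTB no longer passed when sh52 replicate 1 (edgeR, adjusted p = 0.0598) or control replicate 3 (0.0574) was left out.

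Genes were next grouped into 27 lists by function. Each list is described by the number of measured members that passed the test over all genes, beside the 5.45% of all genes that rose, the 6.57% that fell and the median of all genes of -0.00079. These shares are not matched for level. Of 2357 genes at 100 CPM and more, 226 rose and 339 fell, so that lists of abundant genes have a higher share to be set against. The list with most calls in 1 direction was cholesterol and fatty acid synthesis, in which 16 of 28 measured members fell and 0 rose, with a median log2 change of -0.25. Without replicate 1, 15 fell and 1 rose. HMGCS1, which makes the HMG-CoA from which mevalonate is formed, measured 244.9, 260.9 and 214.1 CPM in the control and 182.2, 157.5 and 155.0 CPM under sh52 (log2 change -0.54, SE 0.07; edgeR, adjusted p = 1.6e-05). DHCR7, which catalyses the last step to cholesterol, measured 188.7, 196.0 and 191.9 CPM in the control and 125.7, 140.9 and 130.7 CPM under sh52 (log2 change -0.54, SE 0.06; edgeR, adjusted p = 3.48e-07). Neither gene's groups overlapped. The squalene synthase FDFT1 fell by 0.48 and the sterol oxidase MSMO1 by 0.47 on the log2 scale. The citrate lyase ACLY, which supplies acetyl-CoA to both pathways, fell from 546 ± 11.9 to 443 ± 10.7 CPM. With any 1 library left out, between 12 and 17 members fell.

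Of 22 hypoxia and HIF targets, 8 rose and 1 fell, with a median of 0.10, and 7 rose and 1 fell without replicate 1. ANGPTL4, a secreted inhibitor of lipoprotein lipase, was weakly expressed at 1.01, 0.877 and 0.717 CPM in the control and reached 3.75, 3.31 and 3.45 CPM under sh52 (log2 change 1.998, SE 0.30; edgeR, adjusted p = 4.66e-05). The vasodilator peptide gene ADM rose from 108 ± 10.4 to 168 ± 5.85 CPM. The sh52 values of ANGPTL4 and ADM lay above all control values. DDIT4, an inhibitor of the mTORC1 kinase complex, was the member that fell, from 352 ± 44.0 to 239 ± 18.2 CPM (log2 change -0.56). In the glycolysis list, 8 of 21 members rose and 3 fell (median 0.05), and 4 rose when sh52 replicate 3, control replicate 1 or control replicate 2 was left out, the last of which also left 1 that fell. The glucose transporter SLC2A3 rose by 0.49 (SE 0.09) and SLC16A3, a lactate exporter, by 0.40, the latter with an adjusted p of 0.0046 (edgeR) and of 0.0624 with DESeq2.

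YAP targets held 7 members that rose and 1 that fell among 21, with a median of 0.09 and the same counts without replicate 1. AXL, a receptor tyrosine kinase, measured 111.4, 123.5 and 118.5 CPM in the control and 160.6, 166.3 and 173.7 CPM under sh52 (log2 change 0.50, SE 0.06; edgeR, adjusted p = 1.37e-06). The matricellular protein gene CCN1 rose from 1012 ± 57.4 to 1409 ± 91.1 CPM, and the kinase gene NUAK2 from 11.7 ± 1.48 to 21.1 ± 2.73 CPM. ANKRD1 had a log2 change of 1.249 at 1.45 ± 0.641 CPM in the control, which did not pass without control replicate 1 (0.99; edgeR, adjusted p = 0.0781). Of 26 immediate early and MAPK feedback genes, 5 rose and 3 fell (median -0.01), and between 3 and 5 rose with 1 library left out, with 3 for sh52 replicate 3 and control replicates 1 and 2. A single member fell without sh52 replicate 3 or control replicate 1. The AP-1 subunits FOSL1 and FOSB rose by 0.50 and 0.47, and ATF3, a stress-induced factor, by 0.42 on the log2 scale. Of 20 heat shock and chaperone genes, 4 rose and 0 fell, among them HSPA8 (0.22) and DNAJB1 (0.28), and 2 rose without control replicate 1.

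Extracellular matrix and mesenchymal genes moved both ways, with 8 of 26 lower and 4 higher (median -0.08), and 7 lower and 4 higher without replicate 1. Next to MMP7, FN1 and VIM, the matrix protein gene SPARC fell from 831 ± 13.2 to 595 ± 17.7 CPM (log2 change -0.48, SE 0.05; edgeR, adjusted p = 4.38e-08). Of 24 adhesion receptors and cadherins, 7 fell and 0 rose (median -0.09), and 7 fell and 1 rose without replicate 1. Beside VCAM1 and FAT2, they included CDH16, the kidney-specific cadherin, which fell from 197.5 ± 5.36 to 146.4 ± 8.12 CPM, and the fibronectin receptor subunit ITGA5, which fell by 0.28. Of 24 epithelial and kidney tubule genes, 8 fell and 1 rose (median -0.08). Without replicate 1, 7 fell and 1 rose, and without control replicate 3 the number that rose was 3. USH1C fell most, CDH16 is also in this list, and KRT19, a keratin of simple epithelia, fell by 0.37 on the log2 scale (named after its value was seen). FXYD2, the gamma subunit of the sodium pump, was the member that rose, from 212.5 ± 23.9 to 304.9 ± 23.2 CPM. Fewer cells of a type and less RNA per cell cannot be told apart in these bulk libraries.

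Of 28 genes of mitosis and G2/M, 5 fell and 0 rose, with a median of -0.14, and 7 fell without replicate 1. CCNB2, a mitotic cyclin, measured 23.7, 29.6 and 26.7 CPM in the control and 15.3, 16.6 and 19.96 CPM under sh52 (log2 change -0.63, SE 0.11; edgeR, adjusted p = 0.000436). HMMR, a hyaluronan receptor that also binds the spindle, fell by 0.60, the anaphase activator CDC20 by 0.44 and the topoisomerase TOP2A by 0.33 on the log2 scale. The CCNB2 groups did not overlap, and without control replicate 3 the number of members that fell was 8. Of 29 genes of DNA replication and S phase, 3 rose and 1 fell (median 0.09), and without replicate 1 or without control replicate 2 a single member rose. The replication licensing factor CDC6 had a log2 change of 0.55, which did not pass without sh52 replicate 1 or 3 or control replicate 2 or 3 (edgeR, adjusted p between 0.0538 and 0.0883). RRM2, a subunit of ribonucleotide reductase, had 0.30 with all libraries and did not pass without sh52 replicate 1 (0.19; edgeR, adjusted p = 0.145) or control replicate 1 (0.12). The thymidylate synthase TYMS was the member that fell, and it did not pass without sh52 replicate 1 or 3 or control replicate 1 or 2 (edgeR, adjusted p between 0.064 and 0.118). MCM4 had 0.22, which did not pass without control replicate 2 (edgeR, adjusted p = 0.0767). Of 22 p53 targets, 5 fell and 0 rose (median -0.12), and 6 fell without replicate 1. BTG2, an antiproliferative factor, fell from 102 ± 6.42 to 74.0 ± 4.28 CPM, and GDF15 and TP53INP1 fell by 0.38 and 0.34.

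Of 20 NF-kB targets and cytokines, 5 fell and 2 rose, with a median of -0.08, and a single member rose when any library but sh52 replicate 3 or sh50 replicate 3 was left out. VCAM1 fell most, followed by CSF1, the macrophage growth factor, from 89.9 ± 0.482 to 63.0 ± 6.91 CPM, and by BIRC3, an inhibitor of apoptosis, from 80.6 ± 7.06 to 58.9 ± 3.72 CPM. RELA, the p65 subunit of NF-kB itself, fell by 0.36 (SE 0.07; edgeR, adjusted p = 0.00126). In the type I interferon list, 4 of 28 fell and 1 rose, with a median of 0.03, and 3 fell and 2 rose without replicate 1. IFI44L fell from 44.5 ± 3.11 to 32.7 ± 3.40 CPM (log2 change -0.45). The call of DDX60 (-0.29) ended without control replicate 2 (edgeR, adjusted p = 0.0987), and without that library 1 member fell. XAF1 rose by 0.37, and its call ended without control replicate 1 (edgeR, adjusted p = 0.055). Of 21 NRF2 targets, 6 fell and 1 rose (median -0.12), and 5 fell without replicate 1 and 3 without control replicate 2. AKR1B10 fell most, and the transporter gene ABCC2 fell by 0.40 on the log2 scale.

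Of 25 genes of the unfolded protein and ATF4 response, 3 fell and 1 rose (median -0.04). PSAT1, an enzyme of serine synthesis, measured 136.4, 140.2 and 133.8 CPM in the control and 77.8, 70.5 and 80.3 CPM under sh52 (log2 change -0.84, SE 0.06; edgeR, adjusted p = 7.33e-10). Its groups lay far apart, and ATF4, the transcription factor that activates amino acid synthesis genes, moved the other way with a log2 change of 0.34 (SE 0.06). Of 18 amino acid and osmolyte transporters, 2 fell and 1 rose (median -0.08). The member that rose was SLC7A6, which did not pass without sh52 replicate 1 or 3 or control replicate 1 or 2 (edgeR, adjusted p between 0.0661 and 0.204). SLC7A7, a subunit of a cationic amino acid exchanger, fell from 31.5 ± 1.18 to 16.5 ± 2.11 CPM (log2 change -0.93). Of 7 dynein light chains, DYNLRB1 and DYNLL2 rose and DYNLT1 fell (median 0.17). DYNLL2 measured 25.2, 24.6 and 22.7 CPM in the control and 44.7, 41.3 and 40.8 CPM under sh52 (log2 change 0.81, SE 0.09), and DYNLT1 fell by 0.39.

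Cytosolic ribosomal protein genes moved both ways, with 7 of 35 higher and 4 lower (median 0.03). RPS28 rose by 0.43, RPL38 by 0.41 and RPS15 by 0.30 on the log2 scale. The number lower was 1 without sh52 replicate 1 or 3, 0 without control replicate 2 or 3 and 7 without sh52 replicate 2, and the number higher was 4 without sh52 replicate 3 or control replicate 1 or 2. Of 31 proteasome subunits, 4 fell and 0 rose (median -0.07), and the number that fell was 0 without control replicate 2, 1 without sh52 replicate 3 or sh50 replicate 1 and 2 without sh52 replicate 1 or 2 or control replicate 1 or 3. Of 30 respiratory chain subunits, 2 rose and 2 fell (median -0.03), and of these 4 only ATP5F1B, a subunit of ATP synthase (-0.27), was called with each of the 9 libraries left out in turn. Of 15 reported substrates and partners of USP13, ACLY, VCP and ZHX2 fell and USP10 and MITF rose, and the median was -0.04. Of these 5, ACLY was called with each library left out, while VCP lost its call without control replicate 2 (edgeR, adjusted p = 0.051) and MITF did so without any 1 of 6 libraries, sh52 replicate 1 among them (edgeR, adjusted p = 0.152). Of 13 genes of the RNA interference machinery, PRKRA rose and TARBP2 fell (median 0.08), and both calls ended without control replicate 3 (edgeR, adjusted p = 0.0758 and 0.166). TARBP2 also did not pass without sh52 replicate 1 or 3 or control replicate 2. Of 7 replication-dependent histone genes measured in 13 listed, 3 rose (median 0.34), and 1 rose without sh52 replicate 1, control replicate 1 or control replicate 2. The list labelled nuclear-retained RNAs held long noncoding RNAs such as MALAT1 and NEAT1, but also GAS5 and NORAD, and their place in the cell was not measured. Of its 8 measured members, 0 were called with all libraries (edgeR), 1 without sh52 replicate 1 or 2 and 2 without control replicate 3 (median 0.08).

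**Figure D4:**
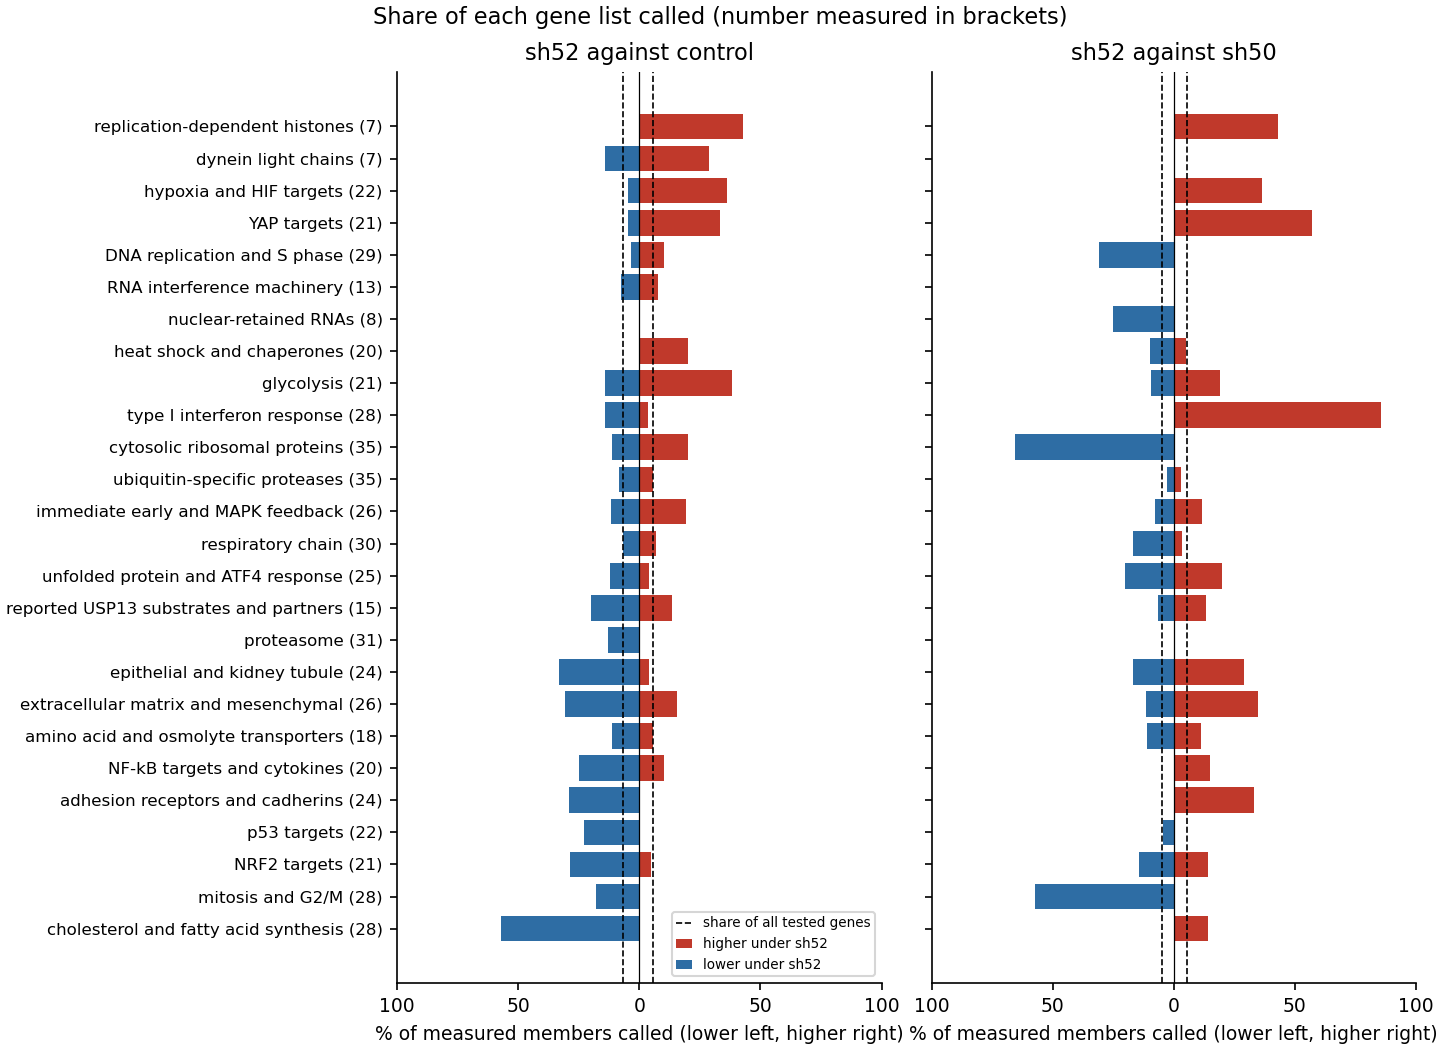
Share of the measured members of each list called lower (blue, to the left) and higher (red, to the right) under sh52, against the control (left panel) and against sh50 (right panel), with dashed lines at the share of all tested genes. Cholesterol and fatty acid synthesis has the longest bar to the left against the control, at 16 of 28 members, and type I interferon response the longest to the right against sh50, at 24 of 28.

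The comparison was repeated without sh52 replicate 1. With the remaining 5 libraries of both groups and the 3 sh50 libraries, 678 genes were higher (4.91%) and 780 lower (5.65%) among 13813 tested, or 10.6% together (edgeR quasi-likelihood). Leaving out one of its mates instead gave 714 higher and 873 lower for sh52 replicate 2, and 532 higher and 656 lower for sh52 replicate 3. A loss of calls was therefore not particular to replicate 1. Of the 1647 genes called with all libraries, 1200 were also called without replicate 1 and in the same direction, which was 72.9% of the first list and 82.4% of the 1456 genes called without it that were tested in both. Another 447 were called only with it and 256 only without it, and 0 were called in opposite directions. The median standard error of a log2 change was 0.0998 with all libraries and 0.104 without replicate 1. The median SD of log2 CPM over 3 libraries was 0.102 in the sh52 group and 0.0896 in the control group. Genes whose call rested on replicate 1 included SULT1A1, a phenol sulfotransferase, with 2.55, 4.28 and 4.09 CPM under sh52 against 5.61, 8.65 and 5.74 CPM in the control. The value of replicate 1 was the lowest, and the log2 change of -0.89 became -0.69 without it (edgeR, adjusted p = 0.0161 and 0.062). TRIM74 measured 11.0, 6.62 and 6.39 CPM under sh52 against 4.36, 3.82 and 4.94 CPM in the control, and its change of 0.88 became 0.58 (edgeR, adjusted p = 0.00766 and 0.0743). PCOLCE2 and PAQR8 lost their calls likewise (edgeR, adjusted p = 0.106 and 0.0522). These 4 genes also lost their calls without 1 control library, which was replicate 1 for PCOLCE2 (edgeR, adjusted p = 0.0843) and replicate 2 for SULT1A1, TRIM74 and PAQR8 (0.173, 0.0591 and 0.0782). In the other direction, PRTG measured 10.0, 4.20 and 5.03 CPM under sh52 against 6.70, 9.59 and 7.73 CPM in the control. Replicate 1 was the highest of all 6 values of PRTG, and the log2 change of -0.32 became -0.80 without it (edgeR, adjusted p = 0.439 and 0.0127). HSD17B14, BNIP1 and SMIM8 also passed without replicate 1 (edgeR, adjusted p = 0.0317, 0.0415 and 0.0342).

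**Figure D5:**
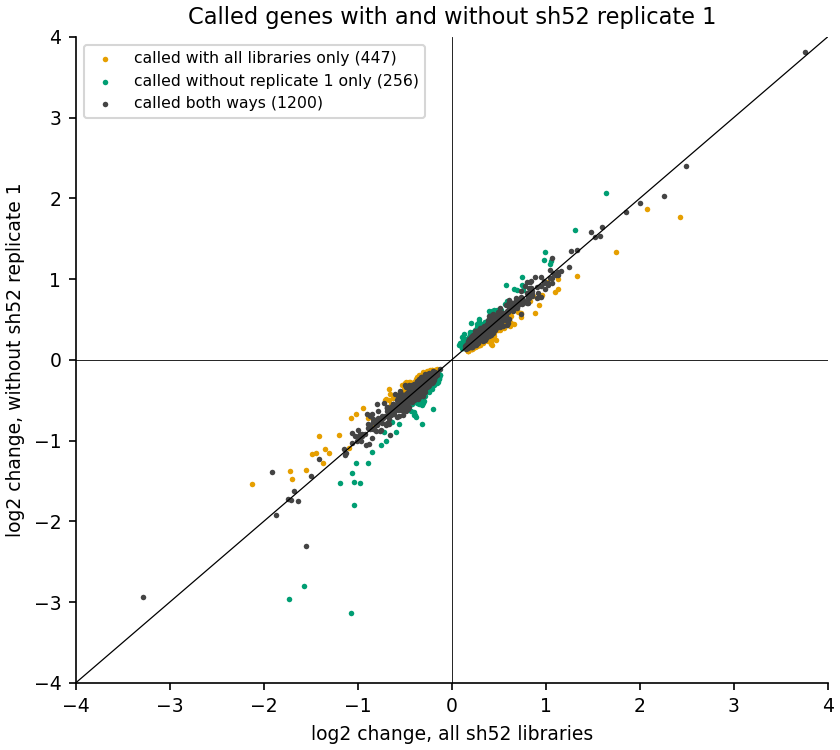
Log2 change under sh52 with all libraries (x axis) against that without sh52 replicate 1 (y axis), with a point for each gene tested both ways and called at least once. Dark points are the 1200 genes called both ways, yellow the 447 called with all libraries only and green the 256 called without replicate 1 only, and 0 genes were called in opposite directions.

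Replicate 1 itself is described next, and its distance from its mates was not tested. The genes named were chosen by that distance, so that a shift of their change without replicate 1 follows from their choice. The adjusted p-values given for them come from the fits with and without it. Among 9872 genes with a mean of at least 10 CPM in the sh52 libraries, 37 were at least 1.5-fold lower and 7 at least 1.5-fold higher in replicate 1 than in both other sh52 libraries, whereas each of the 8 other libraries of the experiment had at most 6 such genes lower and 8 higher than its mates. The largest gap was that of NME6, a nucleoside diphosphate kinase gene, with 6.15 CPM in replicate 1 against 12.9 and 12.9 CPM in replicates 2 and 3 and between 12.1 and 12.5 CPM in the control. JOSD2, another deubiquitinase, measured 11.6 CPM in replicate 1 against 22.4 and 21.5 CPM. PKMYT1, an inhibitory kinase of CDK1, measured 9.97 CPM against 18.7 and 18.1 CPM, and it rose without replicate 1 (log2 change 0.45; edgeR, adjusted p = 0.014) while its value with all libraries was 0.21 (adjusted p = 0.456). SIVA1 and CTXN1 were called lower with all libraries and not without replicate 1 (edgeR, adjusted p = 0.17 and 0.103). S100A2, a calcium-binding protein gene, was lower still in replicate 1 at 11.9 CPM, against 21.8 and 20.3 CPM in its mates and 27.3, 36.9 and 36.5 CPM in the control, and it fell with and without replicate 1 (log2 change -0.90 and -0.68). In the other direction, CARF measured 20.8 CPM in replicate 1 against 12.1 and 11.8 CPM, and it fell without replicate 1 (-0.70; edgeR, adjusted p = 0.00037). PAXIP1, a partner of histone methyltransferases, measured 30.1 CPM in replicate 1 against 14.5 and 18.02 CPM, and its control values were 14.5, 16.4 and 15.5 CPM. The total count of replicate 1 lay between those of its mates, its mitochondrial rRNA share was the lowest of the 3, and the cause of its distance was not tested.

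The direct test of sh52 against sh50 asked where the effect of this hairpin differed from that of the other hairpin against the same mRNA. Between them, 752 genes were higher and 649 lower under sh52, or 10.2% of the genes tested, with 5.49% higher and 4.73% lower (edgeR quasi-likelihood). Without sh52 replicate 1 the counts were 682 and 478, without sh50 replicate 1 they were 462 and 376, and without sh50 replicate 2 they were 407 and 277. Against the shared control libraries, sh50 changed 2942 genes, or 21.5%, with 10.2% higher and 11.3% lower. Among genes called under sh52 against both the control and sh50, SAA1 differed most, with 22.0, 25.8 and 25.7 CPM under sh52, 6.53, 6.53 and 5.71 CPM under sh50 and 12.2, 10.5 and 13.2 CPM in the control. The sh52 values of SAA1 lay above and the sh50 values below every control value (log2 difference between hairpins 1.97, SE 0.13; edgeR, adjusted p = 1.81e-10). The complement gene C3 measured 84.8, 81.1 and 81.6 CPM under sh52, 35.9, 30.6 and 31.7 CPM under sh50 and 57.8, 55.3 and 62.3 CPM in the control. UCA1, a long noncoding RNA, measured 132.7, 135.7 and 146.5 CPM under sh52, 56.0, 57.2 and 54.8 CPM under sh50 and 115.9, 116.1 and 107.9 CPM in the control. For C3 and UCA1 too, the 3 groups were ordered sh50, control, sh52 without overlap, with log2 differences between hairpins of 1.34 and 1.30.

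ULK4, a pseudokinase gene, was 0.98 higher on the log2 scale under sh52 than under sh50, and SLC47A2, an organic cation exporter, was 1.204 higher. The change of SLC47A2 against the control was 0.84 and did not pass without sh52 replicate 3 or control replicate 2 or 3 (edgeR, adjusted p between 0.0536 and 0.0808). AKR1B10 was lower than under sh50, with 4.81, 5.41 and 5.31 CPM under sh52 against 9.57, 12.5 and 11.5 CPM under sh50 and 11.5, 9.08 and 10.4 CPM in the control. Its sh50 and control values overlapped, and its log2 difference between hairpins was -1.12 (SE 0.16; edgeR, adjusted p = 3.91e-05). LTBP2, a matrix protein that binds fibrillin, was 4.26 ± 0.341 CPM under sh52 and 7.14 ± 0.0377 CPM in the control, and its difference from sh50 was -0.91. HABP2, a serine protease gene, had a difference from sh50 of -0.84, and its fall against the control (-0.69) did not pass without control replicate 1 (edgeR, adjusted p = 0.0676). ZNF503 measured 33.9, 51.6 and 44.9 CPM under sh52, 76.1, 80.4 and 71.5 CPM under sh50 and 58.8, 52.6 and 56.0 CPM in the control. Its difference between hairpins was -0.81, while its change of -0.36 against the control became -0.21 without replicate 1 (edgeR, adjusted p = 0.11) and did not pass without control replicate 1 (0.0923). AMY2B was higher under sh52 than in the control and lower than under sh50, and it did not pass against the control without sh52 replicate 1 or 3 or control replicate 1 or 3 (edgeR, adjusted p between 0.0618 and 0.0786). PIGH, which acts in the first step of GPI anchor synthesis, was lower than under sh50 (-0.71), a difference that did not pass without sh50 replicate 1 or 2 (edgeR, adjusted p = 0.0566 and 0.109). Its change of -0.61 against the control did not pass without any 1 of the sh52 libraries or without control replicate 1 or 2 (edgeR, adjusted p between 0.0565 and 0.134).

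Among lists with members higher under sh52 than under sh50, the largest share was that of the type I interferon response, in which 24 of 28 members were higher under sh52 than under sh50 and 0 lower (median difference 0.47), beside 5.49% of all genes. This number lay between 20 and 24 with any 1 library left out. Against the shared control, 20 members were lower and 0 higher under sh50, with a median of -0.44. The median under sh52 against the control was 0.03. RSAD2, an antiviral enzyme, measured 71.3, 75.3 and 81.6 CPM under sh52, 38.6, 36.7 and 44.9 CPM under sh50 and 94.1, 100.3 and 83.2 CPM in the control (log2 difference between hairpins 0.92, SE 0.08; edgeR, adjusted p = 4.99e-08). The RSAD2 change under sh52 against the control was -0.28 and did not pass without replicate 1 (edgeR, adjusted p = 0.0574), nor without sh52 replicate 2 or control replicate 1 or 2 (0.05 to 0.152). IFI6 and IFI27, named here after their values were seen, were 1.02 and 1.60 higher under sh52 than under sh50 on the log2 scale, with changes of 0.02 and 0.22 against the control that did not pass. Of 35 cytosolic ribosomal protein genes, 23 were lower under sh52 than under sh50 and 0 higher (median difference -0.22), between 19 and 25 with any 1 library left out. Against the control, 26 of the 35 were higher and 0 lower under sh50 (median 0.21), while the median under sh52 was 0.03. RPS28, RPL38 and RPS15, the members that rose most against the control, had differences from sh50 between 0.01 and 0.03.

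Of 28 genes of mitosis and G2/M, 16 were lower under sh52 than under sh50 and 0 higher (median difference -0.31), with 7 lower without sh50 replicate 2 and 8 without sh52 replicate 2. TOP2A measured 111.6, 101.7 and 105.1 CPM under sh52, 135.2, 148.5 and 159.1 CPM under sh50 and 132.7, 146.8 and 120.2 CPM in the control. Its sh52 values were the lowest of the 3 groups, while its sh50 and control values overlapped (log2 difference between hairpins -0.48, SE 0.07; edgeR, adjusted p = 5.59e-05). Against the control, 7 of the 28 members were higher and 1 lower under sh50 (median 0.16), while the median under sh52 was -0.14. Of 29 genes of DNA replication and S phase, 9 were lower under sh52 than under sh50 and 0 higher (median difference -0.26), with 4 lower without sh50 replicate 2 or sh52 replicate 2. Against the control, 17 of the 29 were higher and 0 lower under sh50 (median 0.35), while the median under sh52 was 0.09. Of 21 YAP targets, 12 were higher and 0 lower (median difference 0.23), between 8 and 12 with 1 library left out. AXL was 0.55 and CCN1 0.49 higher than under sh50, and their changes under sh50 against the shared controls were -0.05 and -0.01, which did not pass. Other YAP targets did change under sh50. Against the control, 6 of the 21 were lower and 1 higher under sh50 (median -0.12), while the median under sh52 was 0.09. Of the adhesion receptors and cadherins 8 of 24, and of the hypoxia and HIF targets 8 of 22, were higher under sh52 than under sh50 and 0 lower. Without sh50 replicate 1 or 2 the number of adhesion genes was 5. Against the control, 11 of the 24 adhesion genes were lower and 1 higher under sh50. Of the 22 hypoxia and HIF targets, 5 were lower and 5 higher under sh50. Cholesterol and fatty acid synthesis had 4 members higher and 0 lower than under sh50, and HMGCS1 (0.12) and DHCR7 (0.05) did not pass in this comparison. Against the control, this list fell under sh50 too, with 22 of 28 members lower and 1 higher. The median log2 change was -0.37 under sh50 and -0.25 under sh52.

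Because the guides of both hairpins have different seeds, the 3′ UTRs of the tested genes were searched for the sequence that pairs with each seed, on the transcript strand. This is a description with no test, and the sites rest on the assumed 5′ ends of the guides. Among 12412 tested genes with a 3′ UTR in GENCODE 29, 7.02% fell and 5.63% rose under sh52, with a median UTR length of 1354 bases. The site AACTCAT, complementary to bases 2 to 8 of the sh52 guide, was held by 1515 of them, of which 8.98% fell and 3.23% rose, with a median log2 change of -0.03. The site AATTGAT of the sh50 guide, which was not present in the sh52 cells, was held by 1718 genes, of which 9.14% fell and 3.43% rose under sh52. Both sets had long UTRs, with medians of 3315 and 3265 bases. The genes were also divided into 4 equal groups by UTR length. In the group with the shortest UTRs, 6.35% of 63 genes with the sh52 site and 5.85% of 3044 without it fell. The next group had 12.9% of 186 against 6.55% of 2916, and the one after it 8.59% of 361 against 6.97% of 2739. In the group with the longest UTRs, 8.51% of 905 genes with the site and 7.96% of 2198 without it fell. For the shorter site ACTCAT, which pairs with bases 2 to 7, 8.34% of 3683 genes fell.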

How the data were processed

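RNA of 786-O cells was sequenced as paired reads of 150 bases from libraries that do not mark strand (TruSeq RNA v2), per the labels' protocols. The deposited files, per the file headers, hold Salmon's estimated counts, TPM and effective length for each of 60422 RefSeq transcripts. Per the submitters' processing notes, the build was hg19 and the tools were Salmon 0.11.3, STAR 2.5.2b, DESeq2 1.14.1 and cutadapt 1.12, with no role or order given. The authors' estimated counts were whole within 1e-06 and were rounded. The authors' TPM values served only to weight effective lengths.

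Counts were summed to 27064 gene symbols, with 59301 transcripts named by RefSeq and 684 by GENCODE 29, while 437 unnamed ones (0.108% to 0.120% of counts) stayed out. The 9 libraries of the USP13 experiment entered 1 edgeR quasi-likelihood fit without covariates (edgeR 4.0.16, limma 3.58.1, R 4.3.3; filterByExpr, TMM), and 13708 genes were tested with Benjamini-Hochberg adjustment at 0.05. DESeq2 1.42.0 was an alternative. The script was tested on simulated data. The ZHX2 libraries were not used here.

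Named genes were USP13 and ZHX2, the 12 highest and 12 lowest changes, up to 4 called members of each list, up to 6 differences from sh50 in each direction, up to 4 calls gained and 4 lost without sh52 replicate 1, up to 8 genes in each direction that stood apart in it, and the 4 most abundant calls in each direction. They needed a mean of at least 5 CPM (10 for replicate 1), except for list members and the most abundant genes. A few named genes are not reported here. The members and lists were chosen with earlier results of these data known.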

Additional observations from a re-analysis of the deposited data

Results flagged for a closer look

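In 20 genes the test called sh52 and sh50 in opposite directions against the shared control libraries and also called a difference between the hairpins, and 7 of them are given here. SAA1 was 1.97 higher on the log2 scale under sh52 than under sh50 (edgeR, adjusted p = 1.81e-10). C3 was 1.34 higher (edgeR, adjusted p = 1.2e-11) and the noncoding RNA UCA1 1.305 higher (3.71e-13). CD68, a lysosomal membrane protein, was 0.89 higher (edgeR, adjusted p = 9.7e-07), with values of 36.6, 36.3 and 37.5 CPM under sh52 against 18.2, 18.3 and 22.6 CPM under sh50. Its change against the control was 0.30 and was not called without sh52 replicate 1 (edgeR, adjusted p = 0.0504). The glucose transporter SLC2A1 was 0.54 higher (edgeR, adjusted p = 1.05e-07), and ACTB was 0.35 higher (6.61e-06). The transcriptional regulator ZNF503 had a difference of -0.81 (edgeR, adjusted p = 4.3e-06). The calls of ACTB and ZNF503 against the control did not pass without sh52 replicate 1. With 3 libraries a group, no test for outlying samples was made.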

How the results depend on the processing

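With 1 library left out in turn, between 408 and 744 genes were higher and between 582 and 917 lower under sh52 than in the control, with 413 higher without control replicate 1 and 408 higher and 582 lower without control replicate 2. Between 407 and 795 were higher and between 277 and 717 lower than under sh50, with 462 and 376 without sh50 replicate 1 and 407 and 277 without sh50 replicate 2. ZHX2 did not pass with upper-quartile factors (-0.15488), no filter on low counts (-0.16509), the 2 groups alone (-0.16412) or effective length offsets (-0.15902), nor with any library left out (-0.1949 to -0.15171), while it passed with DESeq2. With the replicate number as a block, 651 genes were higher and 810 lower than in the control, 618 higher and 565 lower than under sh50, and ZHX2 was at -0.16677 (edgeR, adjusted p = 0.0759). Same-numbered samples deviated with correlations of -0.103 to 0.0543, so the numbers were not taken as pairs. USP13 passed in all 17 alternatives, and 82 of 128 named genes were called with the same sign in all of them. None reversed. Upper-quartile factors gave 836 higher and 821 lower. Depth limits calls of weakly expressed genes.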
